A study of Mus musculus with 4 samples.

Results

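Cycling Pax7-positive cells made up 2406 of the 8407 kept cells of a myogenic progenitor culture, or 28.6% (exact binomial 95% interval 27.7 to 29.6%). They came from 1 droplet single-cell RNA library of cultured muscle progenitors, called MPC, which held 11847 of the 28363 cell barcodes of a series of 4 libraries. The members were chosen by their counts of unique molecular identifiers (UMIs, each standing for 1 captured RNA molecule). A cell had at least 3 UMIs of Pax7, 0 UMIs of Myog, and at least 5 UMIs in all of Mki67, Top2a, Cenpf, Cdk1 and Ccnb1. Before that, cells with under 1000 UMIs, under 500 genes or over 10% mitochondrial UMIs were left out. The 10% of the remaining cells with the highest share of Rgs5, a mural cell gene, and cells with 10 or more UMIs of Crabp1, which was high in a fibroblast-like group, were then dropped. The levels of these 9 genes therefore describe the choice and are no finding.

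The MPC culture came from Pax7-nGFP mice, a reporter line in which Pax7 regulatory sequence drives a nuclear green fluorescent protein. Myoblasts of a 16-week-old male were grown for 2 passages and then moved into a medium with Forskolin (5 μM), Repsox (5 μM) and CHIR9901 (3 μM) plus 10 ng/ml basic FGF and kept there for 5 passages. Forskolin activates adenylyl cyclase, Repsox inhibits the TGF-beta type I receptor, and basic FGF is a mitogen of muscle cells. The second library used here held passage 2 myoblasts of the same genotype, sex and age, grown with 10 ng/ml basic FGF in serum-rich medium. Both cultures were profiled without cell sorting. The activated and the freshly isolated satellite cells, ASC and fiSC, were GFP-sorted from muscle of the same reporter line, ASC pooled from males and females of 18 to 24 weeks whose tibialis anterior had received cardiotoxin (10 μM) 3 days earlier and fiSC pooled from 3 males of 13 weeks. They enter below only through the share of cells that meet the same limits. Each group is 1 library, so no test was possible and no p-value is given; intervals cover counting error only. Library, batch, medium and passage cannot be told apart between MPC and myoblast, and the labels do not state whether the 2 cultures came from 1 animal, though their library names share a culture number.

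Pax7 is the paired-box transcription factor that marks satellite cells, the stem cells of skeletal muscle. On activation these cells divide, switch on Myod1 and then Myog, leave the cell cycle and fuse into fibres. Notch signalling, through receptors such as Notch3 and the target genes Heyl and Hey1, holds satellite cells in the undifferentiated state. In the cell cycle, genes of DNA replication are made before and during S phase, the replication histones in S phase, and genes of chromosome segregation and cytokinesis late, in G2 and M. Cdkn1c encodes p57, an imprinted inhibitor of cyclin-dependent kinases that restrains division in muscle progenitors.

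The members held 38473582 UMIs, with a median of 14418.5 UMIs and 4265.5 genes per cell, against 12778 UMIs per cell in all other kept cells. Their median mitochondrial share was 3.57%, against 4.07% in all other kept cells. Pax7 UMIs per member had a median of 13 and quartiles of 8 and 20, and the summed 5 cycle genes a median of 34 and quartiles of 16 and 57. At the Pax7 limit, the 88 members with exactly 3 UMIs had 282 CPM of Pax7 (UMIs summed over the cells and scaled to a total of 1000000), and the 52 cells that fell 1 UMI short had 190.2 CPM. At the cycle limit, 81 members had exactly 5 UMIs and 82 otherwise matching cells had 4. A further 730 cells met every limit except for a single Myog UMI. Of the members' barcodes, 5 also occurred in the myoblast library, 6 in ASC and 2 in fiSC. The whole MPC library shared 164 barcodes with myoblast, 27 with ASC and 7 with fiSC, though myoblast held 2993 barcodes and ASC 10818. The cause of this difference was not tested.

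Of the markers of the label, Pax7, Mki67 and Top2a were fixed by the rule and Gpc3 was not. The EGFP reporter, which is no marker of the label, was not used by the rule either. Gpc3 was detected in 79.8% of members and the EGFP reporter in 34.9% after thinning to 5000 UMIs. Cells under 5000 UMIs were left out of all shares at that depth. In the 498 dropped Crabp1-positive cells the shares at the same depth were 26.4% and 10.6%, with median depths before thinning of 14418.5 UMIs in members and 19873.5 UMIs in Crabp1-positive cells. Neither gene was particular to members. Pax7-positive, Myog-negative cells under the cycle limit had 74.6% and 33.9%, and the dropped Rgs5-rich cells 64.9% and 33.0%. Kept cycling cells outside the class had 63.0% and 23.8%. The marker lists of other cell types varied in level. The 10 fibroblast markers summed to 511 CPM, against 7859.9 CPM in the Crabp1-positive cells, and Col3a1 alone gave 484 CPM of the members' sum. The 8 macrophage markers summed to 3.64 CPM, the 7 endothelial markers to 11.5 CPM and the 6 Schwann cell markers to 19.6 CPM. The 10 mural markers summed to 720.00 CPM in members, 764 CPM in the dropped cells with the highest Rgs5 share and 784 CPM in the other kept cells, so this sum did not set the Rgs5-rich cells apart. Its largest terms in members and other kept cells were Acta2 at 274 and 512 CPM and Notch3 at 254 and 128 CPM. The 6 adipocyte markers summed to 169 CPM in members, 113 CPM in the Rgs5-rich cells and 61.4 CPM in Crabp1-positive cells, nearly all of it in members from Lpl, a lipoprotein lipase, at 167 CPM, with Adipoq at 0.0260 CPM.

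**Figure D1:**
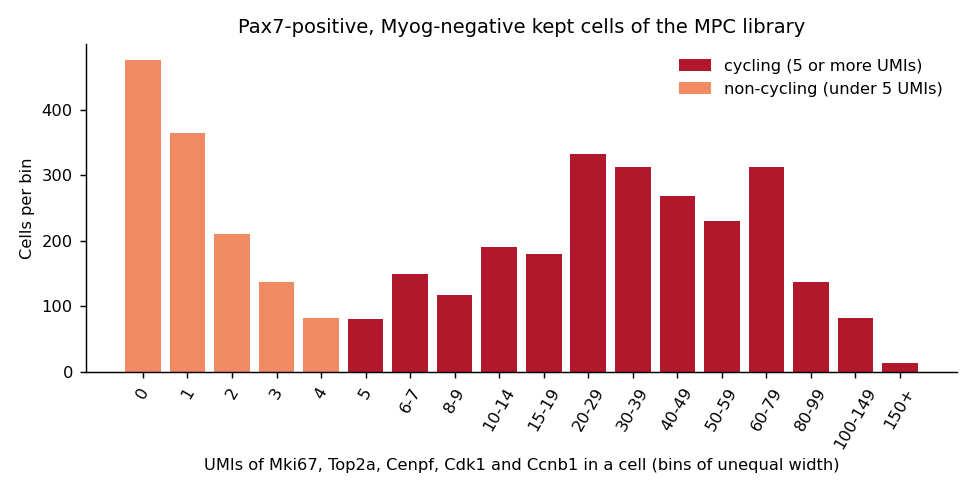
Number of Pax7-positive, Myog-negative kept MPC cells (y axis) by UMIs of the 5 cycle genes per cell (x axis, bins of unequal width), with members in red and cells under the limit of 5 UMIs in orange. The 476 cells with 0 UMIs form the tallest bar, and the bars on either side of the limit are alike at 82 cells with 4 UMIs and 81 with 5; heights of bins of different width are not comparable.

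The counts of the 5 cycle genes showed no gap at the limit. Of the 3675 Pax7-positive cells without Myog, 476 had 0 UMIs of the 5 genes, 364 had 1, 82 had 4 and 81 had 5, so members and non-cycling cells meet there without a break. Under the same UMI limits the share of kept cells was 35.1% (846 of 2409) in myoblast, 24.3% (1637 of 6743) in ASC and 0.40% (9 of 2251) in fiSC. The Rgs5 step was applied to MPC alone. With the dropped Rgs5-rich and Crabp1-positive cells in the denominator, the MPC share was 24.3%. A limit on UMIs takes deep cells more often. Thinning to 5000 UMIs first left out cells under that depth. In MPC these were 0.623% of members and 8.55% of the other kept cells. In myoblast they were 0.355% of cells meeting the limits and 12.2% of the others. The shares were then 24.8% (23.9 to 25.8%) of 7879 cells in MPC and 26.0% (24.1 to 27.8%) of 2215 in myoblast. They were 1.14% of 5686 in ASC and 0.267% of 1873 in fiSC. The 1637 ASC cells had a median of 6 Pax7 UMIs at a median depth of 52416 UMIs. Thinning to 5000 UMIs takes most of them below the Pax7 limit, so 1.14% does not measure how many ASC cells were cycling. Of the 6743 kept ASC cells, 3735 had under 3 Pax7 UMIs, no Myog and under 5 cycle UMIs. The MPC and myoblast intervals overlapped at 5000 UMIs, though MPC alone had lost its Rgs5-rich cells.

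A first comparison was with the 1269 Pax7-positive cells without Myog that stayed under the cycle limit. Against them, members held high levels of the machinery of chromosome segregation and cytokinesis, while their stem cell genes stood at nearly the same level. A gene met the size rule where the log2 ratio of CPM plus 5 was at least 1 in either direction with at least 10 CPM in the higher class. Of 8961 genes, 251 (2.8%) were higher in members and 4 (0.0446%) were lower. The 5 cycle genes chose both classes and were all among the 251. Genes that move with them were bound to differ, and these counts are a description.

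All 36 measured genes of the G2/M list were among the 251, with a median log2 ratio of 3.04 against 0.05 over all genes. Nusap1, which bundles spindle microtubules, stood at 261 CPM in members (256 to 267) and 7.82 CPM in non-cycling cells (6.35 to 9.53). The spindle motor Kif11 had 175 against 6.15 CPM, and the midzone bundler Prc1 296 against 14.05 CPM. Of the chromosomal passenger complex, the kinase Aurkb stood at 119.8 against 3.43 CPM. Ect2, which starts the contractile ring, had 105 against 4.63 CPM. Outside the list, the complex's scaffold Incenp had 151 against 8.70 CPM, and Sgo2a, a protector of centromeric cohesion, 109.8 against 3.99 CPM. The smallest ratios in the list were those of Ccnb2 (124 against 49.1 CPM) and Cdc25b (53.9 against 19.3 CPM).

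Of 18 measured replication histone genes, 16 were higher in members. The linker histone H1f5 stood at 561 CPM against 42.9 CPM and H2ac24 at 462 against 30.5 CPM. H2bc4, at 17.5 against 34.8 CPM, and H1f0, at 50.7 against 38.6 CPM, did not meet the rule. H1f0 stands in the list but is a replacement linker histone that is not tied to replication. The library captures polyadenylated RNA, and most replication histone transcripts carry no poly(A) tail, so these levels cover the captured fraction. Histone genes have near-identical copies, and how reads were split between them is uncertain.

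The genes of DNA replication separated the classes far less. Of 32 measured, 8 were higher in members and none was lower, with a median of 0.38. The 8 included Rrm2 and Rrm1, the subunits of ribonucleotide reductase, at 151 against 39.8 CPM and 164 against 64.7 CPM. The replicative helicase subunits Mcm2, Mcm3, Mcm4 and Mcm6 stood slightly lower in members, Mcm6 at 143 against 199 CPM and Mcm3 at 108 against 121 CPM. The origin licensing factor Cdt1 had 38.9 against 47.9 CPM and the repair enzyme Ung 7.64 against 14.8 CPM. Transcripts of replication licensing were thus present in the non-cycling class as well.

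Among the other genes higher in members were the chromatin proteins Hmgb2 (695 against 167 CPM) and Lmnb1 (188 against 63.3 CPM), and Neil3, a DNA glycosylase, at 107 against 4.23 CPM. Of 7 measured inhibitors of cyclin-dependent kinases, Cdkn2d (32.5 against 11.3 CPM) and Cdkn3 (35.5 against 9.90 CPM) were higher. Cdkn1c stood at 1156 CPM in members (1145 to 1166) and 1082 CPM in non-cycling cells (1064 to 1101). Cdkn1a, the p53-responsive inhibitor p21, had 139 and 136 CPM. Neither of these inhibitors met the size rule between cycling and non-cycling Pax7-positive cells.

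Stem cell and myogenic genes differed little across the same split. None of the 15 measured myogenic factors met the rule, with a median of 0.07, but Pax7 among them was held above a limit in both classes. Pax7 had 996 against 1031 CPM, which the rule set. Of the factors it did not use, Myf5, which acts early in myogenesis, had 70.3 against 74.2 CPM, and Myod1 49.1 against 36.4 CPM. The Notch targets Heyl and Hey1 had 98.8 against 91.2 CPM and 49.2 against 46.6 CPM, and the receptor Notch3 254 against 225 CPM. Gpc3, a glypican that binds growth factors at the cell surface, had 553 against 568 CPM, and the EGFP reporter 86.9 against 85.4 CPM. All 17 hypoxia-responsive genes measured had ratios under 0, though none met the rule. The largest differences were in the carbonic anhydrase Car9 (48.6 against 89.2 CPM) and Ndufa4l2 (197 against 331 CPM). Median depth was 14418.5 UMIs in members and 9578 UMIs in non-cycling cells, and thinning cells to 5000 UMIs gave 260 genes higher and 5 lower.

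The 4 genes lower in members were Areg, Spp1, Tafa2 and Gsta4. Areg, an epidermal growth factor receptor ligand, had 16.8 CPM in members and 54.8 CPM in non-cycling cells, and the secreted phosphoprotein Spp1 247 and 629.9 CPM. Both were high in the dropped Crabp1-positive cells, Areg at 231 CPM and Spp1 at 2514 CPM, and Crabp1 itself stood at 10.8 CPM in members and 16.6 CPM in non-cycling cells. The part of Crabp1-positive cells or of their free RNA in these 2 differences was not tested.

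Many G2/M genes are repressed outside that phase through a CHR element, with letters TTTGAA or TTCGAA, close to CCAAT boxes, as background. These letters were searched on both strands of the RefSeq promoter windows of build GRCm38.p6, from 250 bases before to 50 after each start, taking the first window of each gene. Of the 36 G2/M genes 29 had a window. Of these, 23 (79.3%) held TTTGAA or TTCGAA, against 4 of 26 (15.4%) for DNA replication genes and 5254 of 27025 (19.4%) for all genes. CCAAT was found in 21 of the 29 (72.4%), in 15 of 26 replication genes (57.7%) and in 10248 of all windows (37.9%). Both together were found in 19 of 29 (65.5%), in 3 of 26 (11.5%) and in 2082 of 27025 (7.70%). A match is a description of letters, not of a bound site. The windows below belong to the 4 genes of the list with the highest ratios among those whose window held both, chosen after that search. They show how close the letters lie in the promoters of genes that separated the classes. Each reads 5′ to 3′ along the gene, with matches on either strand in capitals.
Kif11 (chr19:37376132-37376431, plus strand): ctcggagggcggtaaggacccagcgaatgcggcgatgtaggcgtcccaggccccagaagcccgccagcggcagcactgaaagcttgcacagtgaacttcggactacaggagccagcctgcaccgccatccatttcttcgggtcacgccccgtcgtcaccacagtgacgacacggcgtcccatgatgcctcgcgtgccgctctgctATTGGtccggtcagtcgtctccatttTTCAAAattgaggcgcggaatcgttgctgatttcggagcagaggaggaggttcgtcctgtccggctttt
Prc1 (chr7:80294201-80294500, plus strand): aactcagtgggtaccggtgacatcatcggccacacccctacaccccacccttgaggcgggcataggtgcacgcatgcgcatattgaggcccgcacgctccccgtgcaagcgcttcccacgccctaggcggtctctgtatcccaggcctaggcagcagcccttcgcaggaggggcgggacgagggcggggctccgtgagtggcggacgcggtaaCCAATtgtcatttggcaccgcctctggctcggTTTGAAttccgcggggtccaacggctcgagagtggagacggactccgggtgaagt
Ect2 (chr3:27153829-27154128, minus strand): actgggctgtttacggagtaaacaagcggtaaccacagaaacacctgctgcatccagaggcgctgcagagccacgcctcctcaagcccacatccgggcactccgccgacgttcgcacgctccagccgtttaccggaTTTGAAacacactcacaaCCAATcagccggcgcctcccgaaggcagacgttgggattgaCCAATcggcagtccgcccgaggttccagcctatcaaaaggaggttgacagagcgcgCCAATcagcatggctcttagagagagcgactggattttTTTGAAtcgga
Kif4 (chrX:100625815-100626114, plus strand): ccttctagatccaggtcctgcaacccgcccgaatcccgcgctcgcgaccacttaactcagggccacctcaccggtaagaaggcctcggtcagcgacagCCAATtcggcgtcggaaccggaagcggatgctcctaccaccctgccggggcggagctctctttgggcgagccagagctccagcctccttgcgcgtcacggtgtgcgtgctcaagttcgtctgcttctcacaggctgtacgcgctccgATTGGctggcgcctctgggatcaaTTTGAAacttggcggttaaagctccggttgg
Kif11 and Prc1 held 1 CCAAT and 1 CHR match each, Kif4 held 2 and 1, and Ect2 held 3 and 2.

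**Figure D2:**
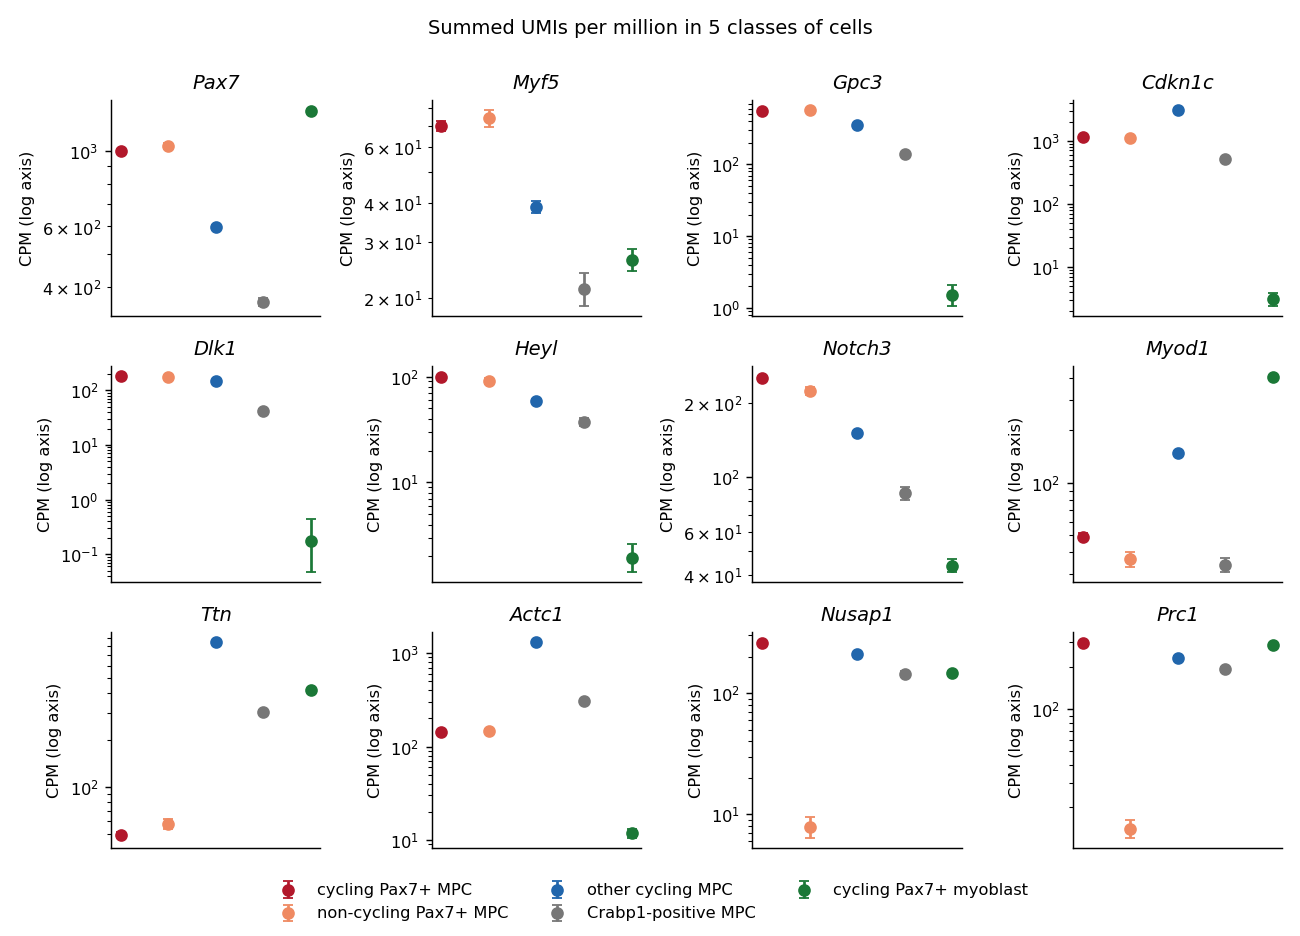
CPM of 12 genes (y axes, logarithmic) in cycling Pax7-positive MPC cells, non-cycling Pax7-positive MPC cells, other cycling MPC cells, dropped Crabp1-positive MPC cells and cycling Pax7-positive myoblast cells, left to right, with exact Poisson 95% intervals. Nusap1 and Prc1 are lowest in the non-cycling class, at 7.82 and 14.05 CPM, Ttn and Actc1 are high in the other cycling cells, and Gpc3, Cdkn1c and Dlk1 are close to 0 in myoblast cells.

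The other cycling cells of the culture numbered 2346, of which 2239 held Myog and 107 held under 3 Pax7 UMIs without Myog. Members and these cells had much the same cycle genes, and differed in that members had far less RNA of muscle differentiation. Of 9049 genes, 0 (0%) were higher in members and 219 (2.42%) were lower. With at most 5% mitochondrial UMIs 140 genes were lower, and with cells of 1 or 2 Myog UMIs left out 59 were higher and 323 lower. The Myog, Pax7 and cycle limits set this comparison, so it too is a description. Of the 219 lower genes, 1 was a gene of the rule.

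Of 20 early differentiation genes measured, 15 were lower in members, with a median log2 ratio of -2.26, and of 19 sarcomere genes 18 were lower, with a median of -2.33. Titin, Ttn, stood at 48.9 CPM in members (46.7 to 51.1) and 849 CPM in other cycling cells (841 to 857). The fusion factor Mymk had 8.76 against 179 CPM, the embryonic myosin Myh3 26.6 against 373 CPM, and cardiac actin Actc1 144 against 1313 CPM. Rbm24, a splicing regulator of muscle, had 31.1 against 361 CPM. The 5 differentiation genes not meeting the rule included the acetylcholine receptor subunit Chrnd (30.1 against 35.9 CPM) and Rapsn, which clusters that receptor (19.99 against 17.8 CPM).

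Members still held some differentiation RNA. Ttn was found in 18.4% of members at 5000 UMIs and in 19.8% of Crabp1-positive cells. The part of background RNA in these shares was not tested. Actc1 was found in 46.7% (44.7 to 48.7%) of members and 31.9% (27.8 to 36.2%) of Crabp1-positive cells, and Acta1, skeletal actin, in 39.2% and 32.9%, so both were detected more often in members. Their summed levels ran the other way, with Actc1 at 144 and 307 CPM and Acta1 at 101 and 217 CPM. The 22 listed sarcomere genes summed to 1032 CPM in members, 1683 CPM in Crabp1-positive cells, 1920.1 CPM in the dropped cells with the highest Rgs5 share, and 5332 CPM in other cycling cells. Without thinning, Myog itself was found in 33.3% (29.2 to 37.7%) of Crabp1-positive cells and 39.3% of the Rgs5-rich cells, in 19.1% and 16.4% with exactly 1 UMI. At 5000 UMIs, the depth of the other shares here, Myog was found in 13.9% and 24.7%.

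The G2/M list had 0 genes past the rule in either direction here, with a median of 0.27, and DNA replication likewise 0, with 0.19. Regulators of the cell cycle did differ. Of 7 inhibitors, Cdkn1c was lower in members at 1156 against 3088 CPM, and Cdkn1a at 139 against 327 CPM. The retinoblastoma gene Rb1 stood at 30.2 against 131 CPM. Myod1 had 49.1 against 149 CPM, the Wnt effector Lef1 4.44 against 36.5 CPM, and of the Notch list the ligand Dll1 had 5.28 against 24.8 CPM and the differentiation-linked Hes6 27.4 against 79.7 CPM. Each of these met the rule. Some genes of the stem cell state stood higher in members without reaching it, but their lists as a whole differed little. The satellite cell quiescence list had a median of 0.22, with 12 of 16 above 0. The Notch list had 0.26, with 11 of 15 above 0, and the myogenic factors 0.19, with 9 of 15. The median over all genes was 0.04. The genes named next were among the higher ones. Notch3 had 254 against 151 CPM (log2 ratio 0.73), Heyl 98.8 against 58.9 CPM (0.70), Myf5 70.3 against 38.7 CPM (0.79), Msc, a repressor of Myod1 targets, 31.97 against 16.2 CPM (0.80), and Gpc3 553 against 351 CPM (0.65). Of 21 extracellular matrix genes measured, none met the rule, with a median of 0.53; Col3a1 had 484 against 307 CPM.

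A graded picture appeared when all cycling Pax7-positive kept cells were ordered by Myog UMIs, in classes of 0 (the 2406 members), 1 (730 cells), 2 (176), 3 to 5 (165), 6 to 11 (211) and 12 or more (477). Pax7 stood at 996, 964, 768, 704, 611 and 525 CPM in that order, and Gpc3 at 553, 532, 504, 462, 329 and 266 CPM. Cdkn1c ran the other way, at 1156, 1296, 2023, 2178, 2982 and 3737 CPM. The cells with 1 Myog UMI were close to the members in all 3 genes, and those with 12 or more held over 3 times the members' Cdkn1c. Myod1 had 49.1, 65.1, 96.9, 128, 158 and 181 CPM, and the EGFP reporter 86.9, 84.4, 72.1, 65.9, 59.5 and 50.4 CPM. Ttn stood at 48.9, 104, 138, 199, 572 and 1394 CPM. Cdkn1a changed later, at 139, 141, 155, 187, 249.6 and 444 CPM. Mki67, one of the genes of the rule, stood at 487, 473, 429, 435, 351 and 300.2 CPM. Of genes the rule did not use, the G2/M list summed to 5287, 5143, 4660.3, 4761, 4286 and 3911 CPM and the DNA replication list to 2955, 2988, 3064, 2907, 2755 and 2156 CPM. Median depth went up along the order, at 14418.5, 16151.5, 17038, 19446, 21396 and 29527 UMIs, and its part in the gradient was not tested. The part of doublets of progenitors and differentiating cells was not tested either. Removing the highest-scoring doublets left 1936 of the 2346 other cycling cells, which include the classes with Myog. It left 2279 of the 2406 members and 1263 of the 1269 non-cycling Pax7-positive cells.

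**Figure D3:**
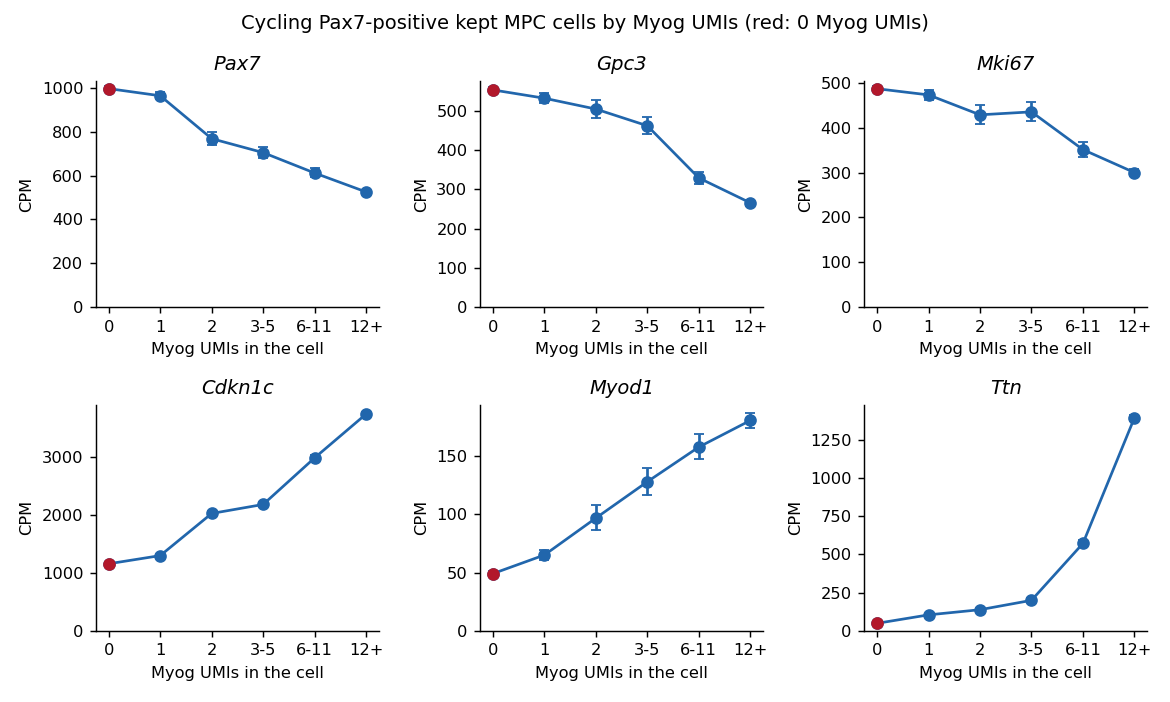
CPM (y axes, from 0) of Pax7, Gpc3, Mki67, Cdkn1c, Myod1 and Ttn in cycling Pax7-positive kept MPC cells by their Myog UMIs (x axes, 6 classes), with exact Poisson 95% intervals and members in red. Pax7 falls to 525 CPM at 12 or more Myog UMIs, against 996 CPM at 0, while Cdkn1c reaches 3737 CPM.

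Against all 6001 other kept cells together, both contrasts were seen at once. Of 9119 genes, 377 (4.13%) met the rule, of which 36 (0.395%) were higher in members and 341 (3.74%) lower. With at most 5% mitochondrial UMIs none of the genes met the rule as higher, and 181 were lower. The number of higher genes moved with most choices. The split was 110 higher and 313 lower when every cell counted equally, 95 and 291 with cells thinned to 5000 UMIs, and 8 and 367 under trimmed-mean (TMM) scaling. It was 91 and 356 with high-scoring doublets removed, 85 and 393 with a pseudocount of 1 CPM, 71 and 333 with 10 or more cycle UMIs, and 7 and 359 with the Rgs5-rich and Crabp1-positive cells kept among the others. With at most 1 Myog UMI, added after seeing the data, it was 131 and 373, and with cells of 1 or 2 Myog UMIs left out, likewise added, 186 and 408. The lower genes were the more stable count. Of the 36 higher genes, 14 belonged to the G2/M list and 3 to the replication histones, and 3 were genes of the rule. H1f5 led with 561 CPM in members and 239.6 CPM in the others, followed by Neil3 (107 and 45.3 CPM), the mitotic kinesin Kif15 (181 and 78.8 CPM) and the spindle checkpoint kinase Ttk (60.9 and 24.8 CPM). Of the 341 lower genes, 17 came from the 21 measured early differentiation genes and 19 from the 20 sarcomere genes. A gene of the rule was among the 341 too. Ttn had 48.9 and 1533 CPM, Myh3 26.6 and 776 CPM, and the sarcoplasmic calcium-binding protein Casq2 5.04 and 149.9 CPM.

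**Figure D4:**
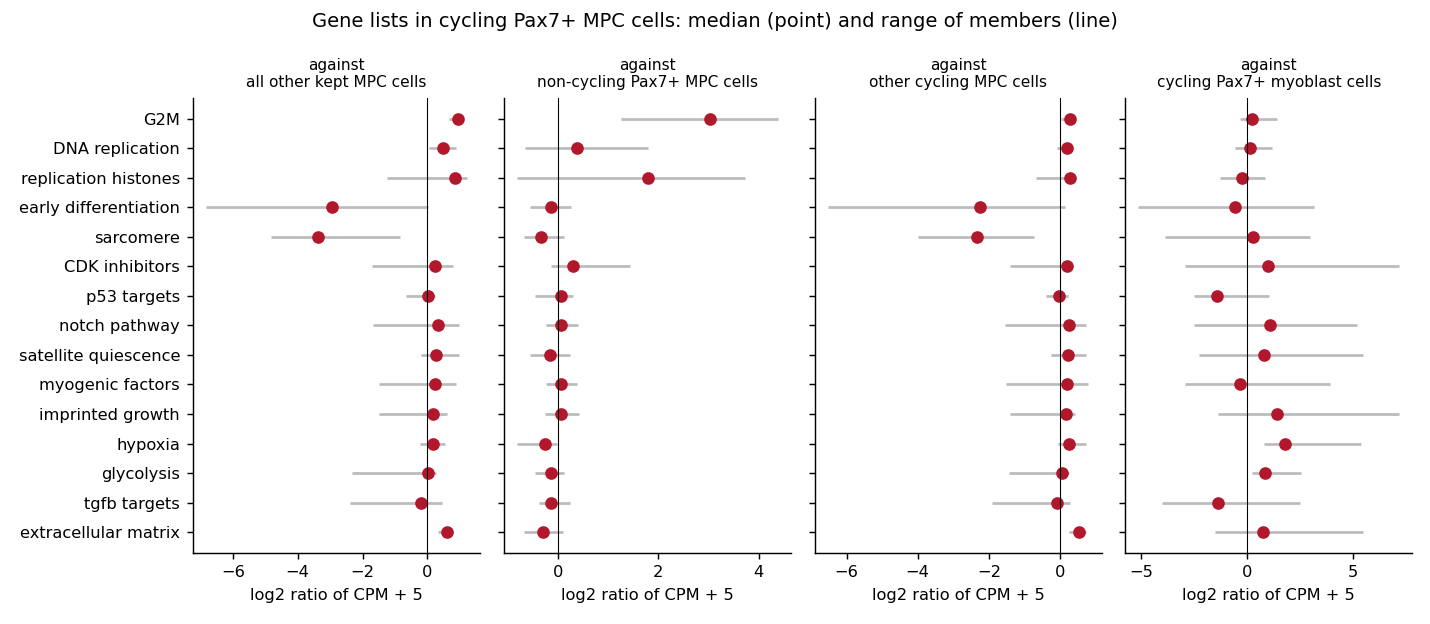
Log2 ratios of CPM plus 5 (x axes) in cycling Pax7-positive MPC cells against 4 other classes (panels) for 15 gene lists, with the median of each list as a point and the range of its measured members as a line. The G2/M median is 3.04 against non-cycling cells and 0.27 against other cycling cells, and the sarcomere median is -3.38 against all other kept cells.

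The same UMI limits, without the Rgs5 step, took 846 cells of the myoblast culture (23144739 UMIs, median 26091 per cell, 5.83% mitochondrial UMIs). The classes share the limits on Pax7, Myog and the cycle genes, and differed widely in others. Of 9364 genes, 729 (7.79%) were higher in the MPC members and 708 (7.56%) lower, each count with 1 gene of the rule. The cycle genes were mostly alike, with 2 of 36 G2/M genes higher (Aurkb, 119.8 against 47.8 CPM, and Hjurp, 177 against 63.7 CPM), 0 lower and a median of 0.23. Pax7, set by the rule, had 996 CPM in MPC members and 1304 CPM in myoblast members, and the EGFP reporter 86.9 and 210.1 CPM.

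Gpc3 stood at 553 CPM (546 to 561) in MPC members and 1.51 CPM (1.05 to 2.10) in myoblast members. The nuclear receptor Rora had 1337 against 26.7 CPM, the cadherin Fat3 185 against 0.259 CPM, and the secreted pleiotrophin, Ptn, 185 against 1.08 CPM. Of these 4 genes, Rora alone exceeded 10 CPM in the myoblast members. Imprinted genes were prominent, with 10 of 16 measured higher and 1, Ndn, lower (1.66 against 12.4 CPM). The highest ratios were those of Cdkn1c (1156 against 3.07 CPM) and Dlk1, a transmembrane relative of the Notch ligands (181 against 0.173 CPM). Grb10, an adaptor that restrains insulin signalling, had 726 against 97.7 CPM and the mannose-6-phosphate receptor gene Igf2r 218 against 52.97 CPM. Peg3 was near level at 756 against 841 CPM.

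Of 14 measured Notch pathway genes 7 were higher and 2 lower. The receptors Notch1 and Notch3 had 159 against 41.3 CPM and 254 against 43.7 CPM. The targets Heyl and Hey1 had 98.8 against 1.94 CPM and 49.2 against 1.43 CPM, while Hes1 was near level at 266 against 302 CPM. Hes6 and the ligand Jag2 were lower, at 27.4 against 177 CPM and 9.02 against 28.9 CPM. Of 18 genes of the satellite cell quiescence list, 9 were higher and 2 lower. The receptor Fgfr4 had 209 against 32.5 CPM, the growth arrest gene Gas1 363 against 36.5 CPM and the basement membrane collagen Col15a1 270.3 against 1.21 CPM. The calcitonin receptor Calcr, a marker of resting satellite cells, was close to absent in both, with 8 UMIs in MPC members (0.208 CPM) and 2 in myoblast members (0.0864 CPM).

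Among myogenic factors Myod1 had 49.1 against 403 CPM and Myf5 70.3 against 26.4 CPM, so the 2 factors stood in opposite directions. Msc had 31.97 against 0.130 CPM. At 5000 UMIs Myod1 was found in 18.7% (17.2 to 20.3%) of MPC members and 80.9% (78.1 to 83.5%) of myoblast members, and in 9.82% of Crabp1-positive MPC cells. The muscle acetylcholine receptor subunit Chrna1 had 8.94 against 480.2 CPM and the stress-responsive Ankrd1 31.9 against 1992 CPM. As lists, these genes did not run in a single direction. Of 18 myogenic factors 4 were higher and 3 lower (median -0.35), and of 18 early differentiation genes 3 were higher and 8 lower (median -0.56). Of 16 sarcomere genes 6 were higher and 3 lower (median 0.29).

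Response genes of several pathways also differed. Of 17 hypoxia-responsive genes 14 were higher in MPC members and 0 lower, with a median of 1.77 against 0.05 over all genes. Ndufa4l2 had 197 CPM in MPC members and 0 UMIs in myoblast members, at least 1521-fold higher against a floor of 3 counts over the class. The mitophagy receptor Bnip3 had 240.2 against 15.2 CPM. The TGF-beta target list had 10 of its 15 measured genes lower and 1 higher, with a median of -1.39. The matrix protein gene Thbs1 had 3.07 against 124 CPM and the pathway's inhibitor Smad7 8.11 against 58.7 CPM. Of 15 cAMP-responsive genes 7 were higher and 2 lower, but the median was 0.10, near the 0.05 over all genes, with 8 above 0. The phosphodiesterase genes Pde4b and Pde3a had 1013 against 75.05 CPM and 144 against 0.821 CPM, Fos had 124 against 6.26 CPM, and Nr4a2 had 3.35 against 65.8 CPM. Of 13 p53 targets 8 were lower and 1 higher (median -1.40), among them Ccng1 at 30.5 against 196 CPM and Bax at 94.9 against 376 CPM.

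The inhibitors of cyclin-dependent kinases were split, with 4 of 8 higher and 3 lower. Cdkn2a, which encodes p16 and ARF, stood at 24.9 CPM in MPC members and 219.96 CPM in myoblast members, its neighbour Cdkn2b at 0.910 and 29.5 CPM and Cdkn1a at 139 and 349.9 CPM. Cdkn1b, p27, was higher at 61.3 against 19.96 CPM. The D-type cyclins Ccnd1 and Ccnd2 were lower, at 152 against 615 CPM and 40.3 against 637 CPM, and Hmga2, an architectural chromatin factor of fetal tissue, stood at 148 against 1549.99 CPM. Spp1 had 247 against 6563 CPM. Mcpt8, a mast cell protease gene family member, had 0 UMIs in MPC members and 284 CPM in myoblast members, at least 3646-fold lower against the floor.

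The members varied among themselves in phase, in Pax7 and in Cdkn1c. Ordering them by the share of G2/M list UMIs among G2/M and DNA replication UMIs gave tertiles, groups of 802 cells each, with median shares of 0.330, 0.655 and 0.832. The order was made from these genes, so their trends describe it. From the lowest through the middle to the highest tertile, Ccne2, the cyclin of S phase entry, stood at 262, 77.6 and 11.9 CPM, Pcna at 305, 179 and 75.5 CPM, Ccnb1 at 41.7, 121 and 214 CPM and the ubiquitin-conjugating enzyme Ube2c at 59.7, 263 and 533 CPM. Each of the 4 runs in a single direction, with S phase genes at the low end and mitotic genes at the high end. The captured histone H1f5, outside both lists, was lowest in the last tertile, at 639.9, 678 and 373 CPM. Over 9005 genes, 112 (1.24%) were higher in the highest tertile than in the lowest and 93 (1.03%) lower, and none of the 15 myogenic factors or 14 Notch genes measured was among them. Pax7 stood at 909.8, 995 and 1072 CPM, Cdkn1c at 1201, 1243 and 1027 CPM and Gpc3 at 587, 524 and 553 CPM. Median depth was 13007, 14680 and 15998.5 UMIs.

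Members with more Pax7 differed little in other genes. Tertiles by Pax7 UMIs per 10000 had medians of 5.22, 9.10 and 14.5. Of 8946 genes, 4 (0.0447%) were higher in the highest tertile, Pax7 among them, and 9 (0.101%) lower. The EGFP reporter followed Pax7 at 66.5, 83.3 and 110.3 CPM. Heyl stood at 73.6, 95.5 and 127 CPM, Hey1 at 37.8, 46.5 and 62.8 CPM and Notch3 at 198, 254 and 309 CPM. In the other direction, Cdkn1c stood at 1418, 1150.1 and 906 CPM, Myod1 at 62.1, 43.4 and 42.3 CPM and Actc1 at 193, 131 and 109.7 CPM. None of these reached 2-fold between the outer tertiles. As lists, 0 of 14 Notch genes and 0 of 15 early differentiation genes met the rule, with medians of 0.18 and -0.15 against 0.04 over all genes. Beside Pax7, the axon guidance ligand Slit2 had 44.4 CPM in the highest tertile against 11.8 CPM in the lowest, and midkine, Mdk, had 11.3 against 3.03 CPM. The insulin-like growth factor binding protein Igfbp2 was lower, with 67.4 against 143 CPM. Hypoxia genes had a median of -0.32, with 2 of 17 above 0.

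Cdkn1c varied widely from member to member. At 5000 UMIs its mean was 5.94 UMIs per member, with a median of 3, quartiles of 1 and 8, a 90th percentile of 15 and a highest value of 58. Its variance was 8.09 times its mean, rank 6 of 3581 genes with a mean of at least 0.25 UMIs, against a median ratio of 1.10. Pax7 had a ratio of 1.99 with a median of 4 and quartiles of 3 and 7, but the rule cut off its low values. Rora, which the rule did not use, had a mean of 6.40 UMIs and a ratio of 4.63. C77080 (22.1), Spp1 (16.7), Rasef (12.5), Tmem196 (10.1) and Nwd1 (8.75) ranked above Cdkn1c and were found in 5.90 to 27.1% of members; all were picked after their values were seen. Cdkn1c and the proliferation marker Mki67 were found together in 69.8% of members. Cdkn1c was present in 85.1% of members with an Mki67 UMI and in 82.1% of those without, so most members with Mki67 also held Cdkn1c. In Crabp1-positive cells Cdkn1c was found in 41.1% at the same depth.

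Tertiles by Cdkn1c UMIs per 10000, added after its spread was seen, had medians of 1.64, 7.25 and 22.5 and like depths of 14401, 14621.5 and 14197.5 UMIs. Of 8997 genes, 11 (0.122%) were higher in the highest tertile, Cdkn1c among them, and 100 (1.11%) lower. The G2/M and replication lists did not differ by this rule, with 0 of 36 G2/M and 0 of 31 replication genes past it and Mki67 at 476, 492 and 493 CPM. None of 18 replication histones met it, though 16 were above 0, with a median of 0.37 against -0.01 over all genes. Of 12 G1 cyclins and kinases 1, Ccnd2, was lower. Of 7 inhibitors Cdkn2a was lower and Cdkn1c, which set the order, higher. Dlk1 was higher along the order at 68.6, 183 and 292 CPM, the slow troponin gene Tnnt1 at 53.5, 81.4 and 161 CPM and Gpc3 at 388, 622 and 649 CPM. Pax7 was nearly flat at 1058, 1033 and 895 CPM, as was the EGFP reporter at 84.1, 87.4 and 89.2 CPM. The members with little Cdkn1c were marked by other genes. Spp1 stood at 535, 152 and 55.3 CPM, Hmga2 at 255, 133 and 56.2 CPM and Ccnd2 at 72.2, 31.6 and 17.1 CPM. Areg had 37.6, 7.95 and 4.94 CPM and Cdkn2a 39.8, 24.9 and 9.80 CPM. The neuropeptide gene Gal had 14.3 against 106 CPM in the highest and lowest tertiles.

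Extracellular matrix genes went with low Cdkn1c, with 5 of 22 lower in the highest tertile, 0 higher and a median of -0.66 against -0.01 over all genes; Col6a3 stood at 124, 68.3 and 39.8 CPM. Several of these genes were also high in cells outside the class. Spp1 had 2514 CPM in Crabp1-positive MPC cells and 6563 CPM in myoblast members, Hmga2 1473 and 1549.99 CPM, and Ccnd2 578 and 637 CPM. Col6a3 had 1477 CPM in Crabp1-positive cells but 2.38 CPM in myoblast members, and Cdkn2a had 5.62 and 219.96 CPM. Crabp1 itself stood at 14.5, 8.93 and 9.004 CPM over the tertiles, and the 10 fibroblast markers had 3 measured, 1 of them lower in the highest tertile. The part of Crabp1-positive cells in the low-Cdkn1c tertile was not tested.

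**Figure D5:**
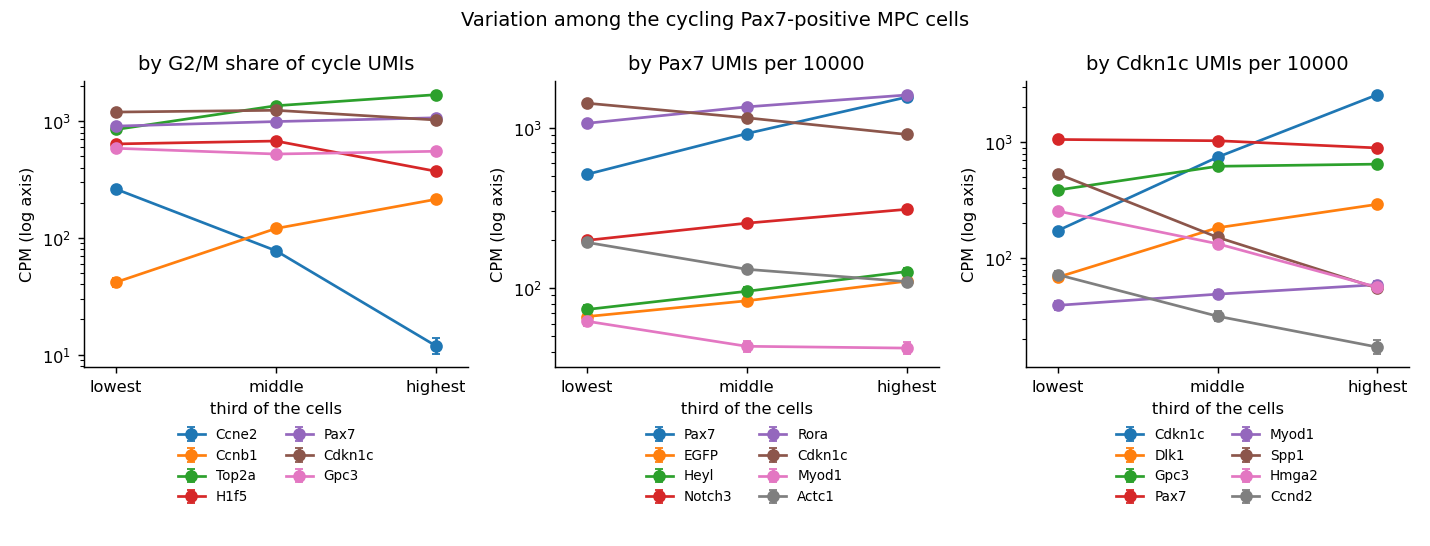
CPM (y axes, logarithmic) of selected genes in tertiles of 802 members each, lowest to highest (x axes), ordered by G2/M share of cycle UMIs (left), by Pax7 (middle) and by Cdkn1c (right), with exact Poisson 95% intervals. Pax7, Cdkn1c and Gpc3 are nearly level across phase, Heyl and Notch3 increase with Pax7 by under 2-fold, and Spp1, Hmga2 and Ccnd2 decline as Cdkn1c and Dlk1 increase.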

How the data were processed

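The authors deposited UMI counts for each gene in each barcode, without normalization, from 10x Genomics 3′ v3.1 chemistry. Per the submitters' processing notes, the aligner was STAR 2.7.10b and the build GRCm39; UMI collapsing, barcode calling and annotation are not given in the sources used here. Counts of 22 symbols on several features were summed. UMIs were summed over the cells of a class and scaled to a total of 1000000 (CPM), with exact Poisson intervals at 95%, and shares of cells have exact binomial intervals. At 10 CPM the half-width was 10.1% in members, 17.9% in non-cycling cells and 13.1% in myoblast members; a count of 0 allows 3 counts, or 0.0780 CPM in members. No test was run, since each group is 1 library and cells are not replicates. Genes were named from 23 gene lists and as the 10 highest and 10 lowest ratios per comparison with at least 50 CPM, without the rule's genes, mitochondrial, Gm and Rik genes; genes of the tertiles, the variance ranking and the lower calls were chosen after their values were seen. The members and lists were chosen with earlier results of these data known. Doublets were kept: Scrublet (scanpy 1.11.5) marked 0% of MPC and 0.249% of myoblast cells automatically, and removing the highest-scoring 799 and 47 cells was an alternative (5.28% of members). TMM factors came from edgeR 4.0.16. The calculation was tested on simulated counts.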

Additional observations from a re-analysis of the deposited data

Results flagged for a closer look

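Cells meeting the Pax7, Myog and cycle limits also occurred outside the kept cells. Of the 990 cells dropped for their Rgs5 share, 394 (39.8%, exact interval 36.7 to 42.9%) met all 3 limits, with 1119 CPM of Pax7, 444 CPM of Gpc3 and 565 CPM of Cdkn1c. Of the 498 dropped for Crabp1, 104 (20.9%, 17.4 to 24.7%) met them, with 596 CPM of Pax7, 193 CPM of Gpc3 and 282 CPM of Cdkn1c. Of 1952 barcodes failing the cell filter, 33 (1.69%, 1.17 to 2.37%) met them, with a median mitochondrial share of 17.4%. They are given because the main comparisons leave these cells out. The 394 and 104 cells are, however, part of the Rgs5-rich and Crabp1-positive cells whose levels and shares are cited above. They also belong to the dropped cells that an alternative count kept among the others.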

How the results depend on the processing

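No named gene past the size rule changed sign under the alternatives tried. At most 5% mitochondrial UMIs left 181 genes (0 higher, 181 lower) against all other kept cells in place of 377, and 140 against other cycling cells in place of 219. Leaving out cells with 1 or 2 Myog UMIs, chosen after seeing the data, gave 594 (186 higher, 408 lower) and 382 (59 higher, 323 lower). The share of 28.6% was 33.2% with at most 5% mitochondrial UMIs, 24.5% with 10 or more cycle UMIs, 25.4% with 6 or more Pax7 UMIs, 24.8% at 5000 UMIs, 24.3% with dropped cells in the denominator and 37.3% with at most 1 Myog UMI, the last chosen after seeing the data. The cause of these moves was not tested. Against non-cycling cells the count lay between 226 and 306, and against myoblast members between 1411 and 1762. Of single named genes, 1228 values moved by less than their counting interval and 608 by more. Leaving out a replicate could not be run with 1 library per group. No paired analysis was possible because each group has 1 library and no result comes from a test. Counting error alone is covered; the spread between cultures is unknown. Depth differs between classes and sets which cells pass a UMI limit.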
